A study of Mus musculus with 7 samples.

Results

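The AMPA and NMDA receptor subunits are the ionotropic glutamate receptor genes Gria1 to Gria4, Grin1, Grin2a to Grin2d and Grin3a, 10 genes taken by the gene symbol that the platform annotation gives each probe. They were measured in brain RNA of 3 knockout mice, homozygous for an allele labelled ko of Duf1220, and 4 wild-type mice. All 7 mice were C57BL/6J males aged 21 weeks, and each gave 1 Illumina BeadArray. In the mouse the DUF1220 domain is encoded by Pde4dip, and how the allele was made, whether the mice were littermates and how the brain was dissected were not stated in the labels. The series title describes mice without the domain as hyperactive and less fecund, and the comparison asks whether the receptor transcripts differ between the brains. Of the 10 genes, 8 had a probe on the array, with 13 probes among the 25697 of the platform. Grin1 and Grin3a had no probe under their symbol or gene identifier, so the obligatory NMDA receptor subunit was not measured.

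AMPA receptors carry most of the fast excitatory current at brain synapses and are tetramers of the proteins GluA1 to GluA4, which Gria1 to Gria4 encode. GluA2 makes the channel almost impermeable to calcium, because its transcript is edited at the pore by adenosine deaminases. GluA1 is abundant in hippocampus and forebrain and takes part in activity-dependent insertion at synapses, and GluA4 is found in cerebellum, brainstem and some interneurons. NMDA receptors pass calcium when glutamate binds during depolarisation. They combine the subunit GluN1, from Grin1, with GluN2 subunits from Grin2a to Grin2d, which set channel kinetics, or with GluN3 subunits. GluN2C, from Grin2c, is typical of cerebellar granule cells and astrocytes.

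The RefSeq promoter table (assembly GRCm38.p6) held 3 of the 5 subunits that were measured above the noise: Gria2, the brightest, Gria4, the one with the widest range over arrays, and Grin2c, the NMDA subunit. The 250 bases upstream of each annotated start are shown so that the genes behind the values can be placed. All 3 lie on the minus strand, and capitals mark matches to the motifs searched.
Gria2, chr3:80802836-80803085: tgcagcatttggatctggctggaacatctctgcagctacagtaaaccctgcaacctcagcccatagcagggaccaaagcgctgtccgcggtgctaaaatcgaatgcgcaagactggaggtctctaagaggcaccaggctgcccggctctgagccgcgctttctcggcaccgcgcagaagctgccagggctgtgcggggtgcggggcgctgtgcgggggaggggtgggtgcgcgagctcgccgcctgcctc
Gria4, chr9:4796235-4796484: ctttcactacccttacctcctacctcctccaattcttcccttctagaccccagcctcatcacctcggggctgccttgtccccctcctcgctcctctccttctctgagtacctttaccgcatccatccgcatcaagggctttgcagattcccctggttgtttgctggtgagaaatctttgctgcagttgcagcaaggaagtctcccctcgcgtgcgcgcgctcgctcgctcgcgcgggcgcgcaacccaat
Grin2c, chr11:115267244-115267493: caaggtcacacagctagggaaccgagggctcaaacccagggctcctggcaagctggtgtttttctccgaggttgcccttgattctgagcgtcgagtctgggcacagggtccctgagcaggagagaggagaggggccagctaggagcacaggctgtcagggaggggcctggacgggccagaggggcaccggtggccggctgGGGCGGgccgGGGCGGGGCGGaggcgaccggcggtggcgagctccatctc
The GC content was 64.8% for Gria2, 58.8% for Gria4 and 68.8% for Grin2c, against a median of 52.4% over 32851 upstream windows of the same length. They held 19, 16 and 15 CpG dinucleotides, where the median window held 6. The motifs were the GC box GGGCGG, the cAMP response element TGACGTCA and the TATA box TATAAA, each on both strands. Only the Grin2c window had a match, with 3 GC boxes between -50 and -30 from the start, a pair of which share 1 base. A GC box occurred in 32.7% of all windows, the cAMP response element in 1.55% and the TATA box in 12.4%. A match describes letters and was not tested as a site.

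Intensities are the authors' normalized values on a linear scale, and values under 16 were set to 16 before log2 was taken. The arrays were compared by correlation, which does not measure how alike single probes read between arrays. Across the tested probes, wild-type array 2 had the lowest mean correlation with the other arrays (0.932), wild-type array 3 followed at 0.970, and the other 5 lay between 0.976 and 0.981. Probes are not independent of each other, and these values describe the arrays. Differences were therefore also computed without these 2 arrays. The correlations were taken over both groups, so leaving out the wild-type arrays least like the rest can by itself shrink a group difference. The brightest Pde4dip probe, ILMN_3064283, read 1391 ± 139.6 (SD, n = 3) in knockout and 2271 ± 156 (SD, n = 4) in wild type. The next probe, ILMN_2751354, read 489.8 ± 44.7 (SD, n = 3) in knockout and 494 ± 119 (SD, n = 4) in wild type, with overlapping groups. Whether either lies in a part changed by the allele was not analysed here. Of 56 brain marker genes in 12 cell type lists that had a probe, 49 were measured above 16 on at least 3 arrays. The other 7, never above 16, were the neuronal genes Snap25, Nefl, Neurod6, Calb1, Cbln3 and Slc6a5 and the oligodendrocyte lineage gene Olig2. A reading at the floor on this array is thus also found for transcripts that define brain tissue.

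The subunit probes fell into bright, dim and unmeasured ones. Averaged over the 7 arrays, the brightest probe of Gria2 read 2941 ± 635 (SD, n = 7) and that of Gria1 635.1 ± 365 (SD, n = 7). Grin2c followed at 53.4 ± 14.5, Gria4 at 50.4 ± 23.6 and Gria3 at 34.3 ± 16.4 (SD, n = 7 each). The Gria2 probe outshone all others on 7 of 7 arrays, and the Gria1 probe outshone those of Grin2c, Gria4 and Gria3 on 7 of 7. The last 3 did not keep 1 order on all arrays. Grin2c was brighter than Gria4 on 4 of 7 arrays, Grin2c was brighter than Gria3 on 6 of 7, and Gria4 was brighter than Gria3 on 5 of 7. Among all probes of the platform the mean of the Gria2 probe stood at percentile 98.0, that of Gria1 at 88.7, Grin2c at 62.5, Gria4 at 61.9 and Gria3 at 58.2. The order is one of probe brightness, which depends on how well each probe binds as well as on the amount of RNA. Probes of 1 gene also read unlike each other: the brightest Gria1 probe exceeded the other two by 1.21 and 1.22 in knockout and by 1.27 and 1.37 in wild type on the log2 scale. The 2 Gria2 probes differed by 1.96 in knockout and 1.64 in wild type. Binding and the transcripts that each probe covers cannot be told apart in these gaps.

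The GluN2 subunits other than GluN2C gave no usable reading. The Grin2a probe ran from -2.37 to 11.98 in intensity over the 7 arrays, the Grin2b probe from -1.25 to 12.7 and the Grin2d probe from -4.19 to 0.083. None of the 3 exceeded 16 on any array, so no fold is given for GluN2A, the main adult forebrain subunit, for GluN2B, which prevails early in life, or for GluN2D. Of the 3 Gria3 probes, ILMN_1238789 was above 16 on 0 of 3 knockout and 2 of 4 wild-type arrays, and ILMN_1223636 on 1 of 3 knockout and 1 of 4 wild-type arrays. These 5 probes were not tested. The 8 tested probes were 3 of Gria1, 2 of Gria2 and 1 each of Gria3, Gria4 and Grin2c.

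**Figure D1:**
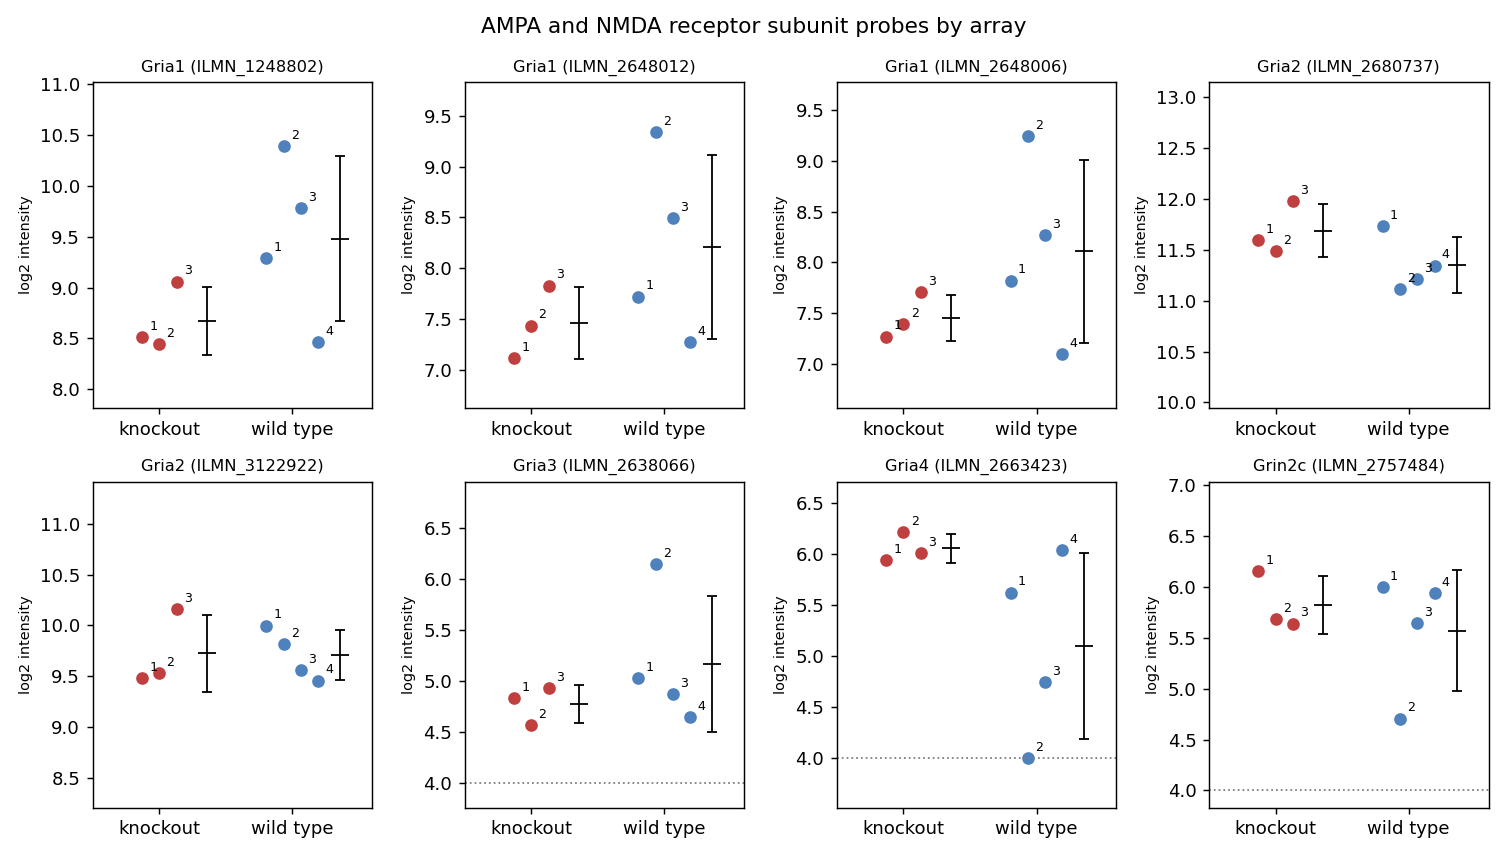
Log2 intensity (vertical axes, all spanning the same width) of the 8 tested subunit probes on each array, with knockout in red and wild type in blue, array numbers beside the points and the mean with SD in black. The dotted line marks the floor of 4, and on the Gria1 and Gria4 panels wild-type arrays 2 and 3 lie at the opposite end from the knockout arrays.

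Gria1, which encodes the activity-inserted AMPA subunit GluA1, had the lowest knockout mean relative to wild type among the tested subunits. Its brightest probe, ILMN_1248802, read 366, 349 and 533 on the knockout arrays, against 624, 1341, 879 and 354 on the wild-type arrays. The knockout arrays sat at or near the lower end, wild-type array 4 lay among them, and wild-type arrays 2 and 3 were the highest. The knockout mean was 0.81 lower on the log2 scale (difference -0.81, SE 0.41, 95% interval -1.74 to 0.13), a level 57.1% of wild type. Limma's adjusted p over all 12833 tested probes was 0.754 and the unadjusted p was 0.0826, so no difference was called.

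The 2 other Gria1 probes gave the same picture. ILMN_2648012 read 139, 173 and 227 in knockout, against 211, 646, 360.3 and 155 in wild type, and ILMN_2648006 read 154, 168 and 209 in knockout, against 226, 604, 309 and 137 in wild type. The differences were -0.74 (SE 0.45) and -0.65 (SE 0.43), each with an adjusted p of 0.754. All 3 probes placed wild-type array 2 highest and wild-type array 3 next. Probes of the same gene on the same array share the RNA and are not replicates. Without wild-type array 2 the 3 differences were -0.50, -0.37 and -0.27, and without wild-type arrays 2 and 3 they were -0.20, -0.04 and -0.0042. Without wild-type array 4, which read lowest of its group, they were -1.15, -1.05 and -0.99, with an adjusted p of 0.376 for each from limma.

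Several cell type marker lists had their highest summed intensity on wild-type arrays 2 and 3, where Gria1 was also highest. Of the hippocampal neuron list, 4 of 5 tested genes had lower means in knockout, and the summed intensity of the list was 1429 to 1909 on knockout arrays and 1607 to 2347 on wild-type arrays, highest on wild-type arrays 2 and 3. Of the blood list, both tested genes had lower means in knockout, with summed intensities of 8771 to 12929.9 in knockout and 10278 to 27479.9 in wild type, again highest on wild-type arrays 2 and 3. Of the cerebellar Purkinje cell list, both tested genes also had lower means in knockout. Its summed intensity was 1470 to 1906 in knockout and 1705 to 2843 in wild type, highest on wild-type arrays 2 and 3. Microglia markers summed to 333 to 449 in knockout and 368 to 615 in wild type, highest on the same arrays, with 3 of 4 lower. Within that list P2ry12 went the other way and read lowest there, 15.9 on each array. Within the hippocampal list Wfs1 went the other way on wild-type array 2, where it was lowest at 546. The forebrain excitatory list ran from 9694 to 11541 in knockout and from 7974 to 13746 in wild type, with wild-type array 2 lowest, and its marker Neurod6 was at the floor on all arrays. Of that list, 3 of 4 tested genes had higher means in knockout and 1 a lower one. The lower one was Slc17a7, with a difference of -0.63. It read 3454, 3432 and 4099 in knockout, against 6010, 4042, 6913 and 6130 in wild type. The part of these markers in the Gria1 readings was not tested. In RNA of mixed brain cells, fewer cells of a type and less RNA per cell cannot be told apart.

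Gria4, which encodes GluA4, a subunit of fast-gating receptors, had the highest knockout mean relative to wild type. Its single probe, ILMN_2663423, read 61.5, 74.6 and 64.5 on the knockout arrays, against 49.3, 9.95, 26.7 and 66.0 on the wild-type arrays. The knockout readings were close together, wild-type array 4 lay within them, and wild-type array 2 was below the floor. The difference was 0.96 (SE 0.44, 95% interval -0.05 to 1.96), or 1.94-fold, on the floored log2 scale, with an adjusted p of 0.754 and an unadjusted p of 0.0589 from limma. The value set to the floor on wild-type array 2 enters this size, so it came to 1.13 with a floor of 8 and to 0.64 with one of 32. Leaving out wild-type array 2 gave a difference of 0.59, and leaving out wild-type arrays 2 and 3 gave 0.22. It was 1.27 when wild-type array 4 was left out (95% interval 0.40 to 2.14, adjusted p = 0.376, limma).

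Markers of brainstem and spinal neurons, cells in which GluA4 is found, had 4 of 5 tested genes with higher means in knockout. Their summed intensity was 2912 to 3317 in knockout and 1883 to 3213 in wild type, with Slc6a5 at the floor on every array. Whether this sum comes from those neurons alone was not tested. The list did not move one way on wild-type arrays 2 and 3: the vesicular transporter gene Slc17a6, which makes up most of the sum, read 1594 and 1579 there and 2635 to 3081 on the other arrays. Glra1, a glycine receptor gene, read 84.3 and 43.2 there and 14.3 to 24.7 on the others. It was the tested member with a lower mean in knockout (difference -1.16), with knockout readings near the floor. The mean log2 deviation of the tested members from their own means was highest on wild-type array 2, at 0.49. Cerebellar granule cell markers had 4 of 5 higher and summed to 4663 to 5681 in knockout and 4594 to 5409 in wild type. Cbln3 was at the floor. Their mean log2 deviation was 0.55 on wild-type array 2, the highest of the 7, and rested largely on Etv1. That gene read 160 there and 7.22 to 22.6 on the other arrays. Gabra6 read 22.3 there, against 16.9 to 53.1 on the others, while Zic1 was highest there. Both tested Purkinje cell markers were lower in knockout. The part of these markers in the Gria4 readings was not tested.

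**Figure D2:**
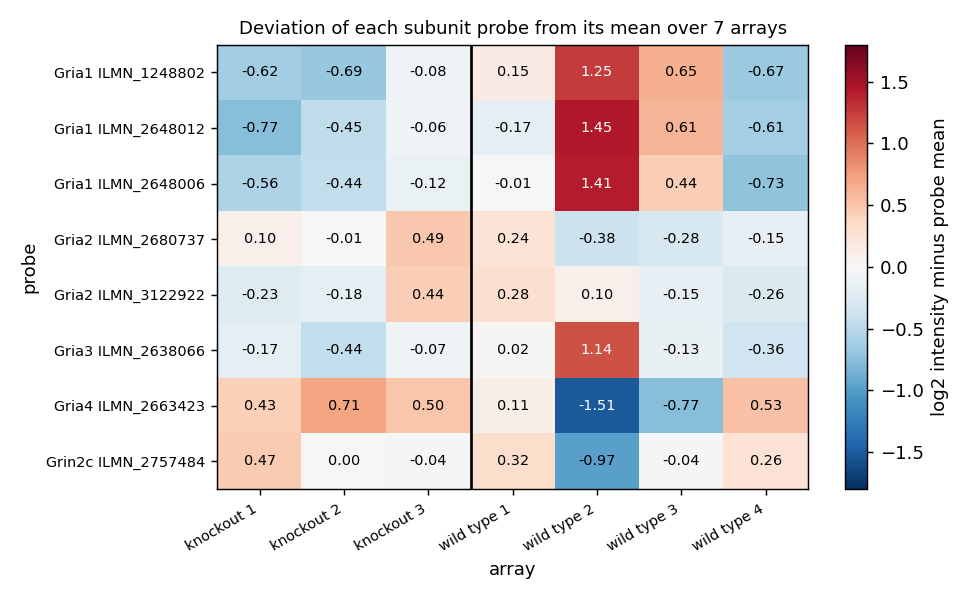
Log2 intensity of each tested probe (rows) minus its own mean over the 7 arrays, for each array (columns), in red where higher and blue where lower. Wild-type array 2 has the highest Gria1 and Gria3 readings and the lowest Gria4 and Grin2c readings, and wild-type array 3 has high Gria1 and low Gria4.

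Gria2, whose edited product GluA2 limits calcium entry, read higher in knockout at its brightest probe and about level at the other, and neither difference passed the test. Its brightest probe, ILMN_2680737, read 3086, 2867 and 4042 in knockout, against 3406, 2213, 2372 and 2603 in wild type. Wild-type array 1 lay within the knockout range and the other 3 wild-type arrays below it. The difference was 0.34 (SE 0.20, 95% interval -0.13 to 0.80, limma adjusted p = 0.754), and it was 0.15 without wild-type arrays 2 and 3. The other probe, ILMN_3122922, whose annotation names a different Gria2 transcript, read 716, 741 and 1144 in knockout, against 1022, 900.3, 757 and 704 in wild type. The groups covered the same range there, and the difference was 0.02 (SE 0.22, 95% interval -0.48 to 0.52, limma adjusted p = 0.984). Knockout array 3 was the highest on both probes. Gria2 lies on chromosome 3, as does Pde4dip, which encodes the domain.

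Gria3, the X-linked gene of GluA3, was dim. Its tested probe, ILMN_2638066, read 28.5, 23.7 and 30.4 in knockout, against 32.6, 70.8, 29.3 and 25.0 in wild type. Wild-type array 2 stood above all others and the remaining 6 overlapped. The difference was -0.40 (SE 0.34, 95% interval -1.17 to 0.37, limma adjusted p = 0.754) and -0.07 (SE 0.15) without wild-type array 2.

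Of the 4 NMDA receptor subunits of the set that had a probe, Grin2c was the one that could be tested. Its probe, ILMN_2757484, read 71.3, 51.5 and 49.9 in knockout, against 63.9, 26.1, 49.9 and 61.3 in wild type. Wild-type array 2 was the lowest and the remaining arrays of both groups covered the same range. The difference was 0.26 (SE 0.32, 95% interval -0.47 to 0.98, limma adjusted p = 0.793), and its sign turned without wild-type array 2, to -0.03 (SE 0.18). Astrocyte markers, from cells that carry GluN2C, summed to 21259.6 to 24084 in knockout and 17848 to 22832 in wild type, with 3 of 7 higher and 4 of 7 lower in knockout and a mean log2 deviation highest on wild-type array 2, at 0.34.

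Counted by probe, 4 of the 8 tested subunit probes had a higher mean in knockout and 4 a lower one, with a median log2 difference of -0.19, against 0.02 over all 12833 tested probes. Gria1 and Gria2 enter this count with several probes each, which are not replicates, so the median is not one over genes. At the brightest probe of each gene the differences were, in rising order, -0.81 for Gria1, -0.40 for Gria3, 0.26 for Grin2c, 0.34 for Gria2 and 0.96 for Gria4. The middle value is thus above 0. By limma, 0 of the 8 passed an adjusted p of 0.05, where 0% of all tested probes passed. At an unadjusted p under 0.05 there were 0 of 8, against 4.2% of all tested probes, and the groups did not overlap for 0 of 8, against 7.39%. The subunits differed in their spread over arrays. The range over the 7 arrays was 1.94 log2 units for the brightest Gria1 probe and 2.22 for Gria4, at percentiles 94.6 and 96.4 of all tested probes. That of the brightest Gria2 probe was 0.87, at percentile 54.8. The lower end of the Gria4 range is the floor itself, so its size depends on the floor chosen. With 3 and 4 arrays, the 95% interval for Gria1 still includes a knockout level of 0.298 to 1.09 times wild type, and that for Gria4 0.969 to 3.88 times.

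**Figure D3:**
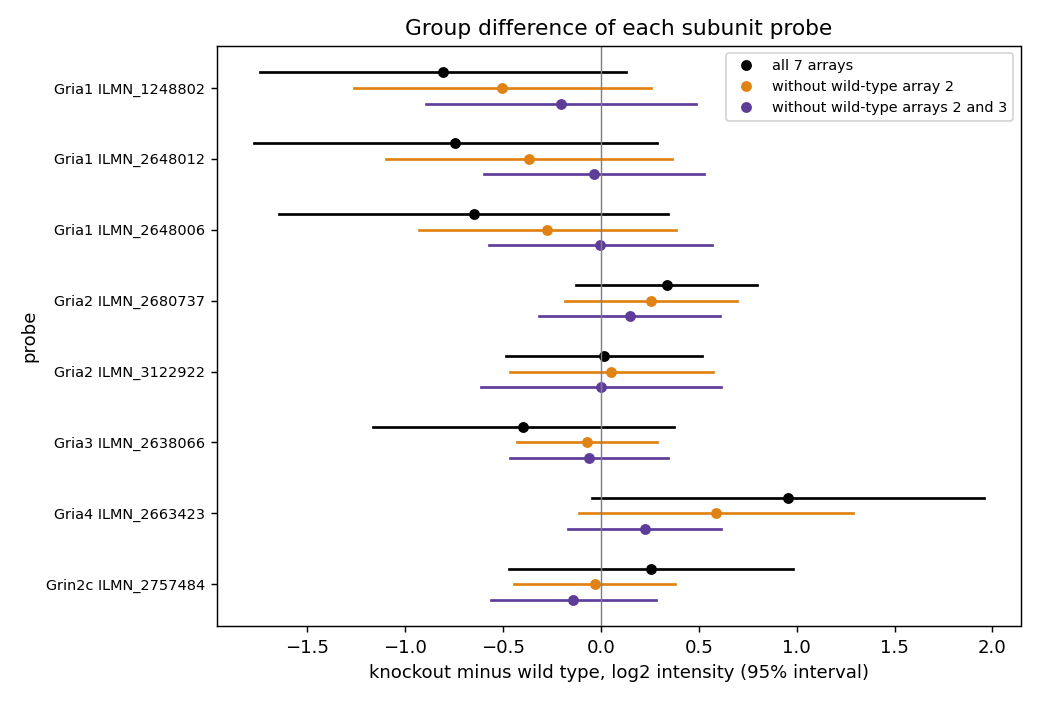
Knockout minus wild-type difference in log2 intensity (horizontal axis) with its 95% interval for the 8 tested probes, from all 7 arrays in black, without wild-type array 2 in orange and without wild-type arrays 2 and 3 in purple. All intervals with all arrays include 0, and the Gria1 and Gria4 differences of -0.81 and 0.96 move to -0.20 and 0.22 without the 2 arrays.

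Ratios within an array compare how a pair of subunits changes, without the shifts that both share. The log2 ratio of Gria1 to Gria2 was -3.08, -3.04 and -2.92 on the knockout arrays, against -2.45, -0.72, -1.43 and -2.88 on the wild-type arrays. The knockout arrays had similar ratios, and only wild-type array 4 came close to them, just above the highest. The mean was -3.01 ± 0.08 (SD, n = 3) in knockout and -1.87 ± 0.98 (SD, n = 4) in wild type, a difference of -1.14. An exact, two-sided permutation test that ran through all 35 assignments of arrays to groups gave p = 0.114, and 0.229 after Benjamini-Hochberg adjustment over the 2 ratios that could be computed. The smallest p that the design allows is 0.0286. The knockout arrays held the 3 lowest ratios, so with these values no split with a lower knockout mean could give a p under 0.114. Without wild-type arrays 2 and 3 the difference was -0.35 (exact permutation p = 0.1, the smallest that those arrays allow).

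The log2 ratio of Gria4 to Gria2 was -5.65, -5.26 and -5.97 in knockout, against -6.11, -7.11, -6.47 and -5.30 in wild type. Its difference was 0.62 (exact permutation p = 0.229, adjusted 0.229), and wild-type array 4 lay within the knockout range. Without wild-type arrays 2 and 3 the difference was 0.078 (exact permutation p = 0.7). Ratios of Grin2a to Grin2b and of Grin1 to Gria2 had been planned and could not be computed, because those probes were below the floor or were not on the array. The ratio of Gria1 to Gria4 was looked at after the values had been seen and is given without a test. It was 2.57, 2.23 and 3.05 in knockout, against 3.66, 6.39, 5.04 and 2.42 in wild type. It spanned under 1 log2 unit over the knockout arrays and was highest on wild-type arrays 2 and 3.

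Gria4 had the largest range of the subunits at their brightest probes. That range rests on wild-type array 2, whose value was set to the floor, so the choice of Gria4 here depends on the floor. The genes whose profile over the 7 arrays was most like that of Gria4 were Krt10, Rad50 and Smc6. Likeness was the root mean square distance of centred log2 values, among 9074 other genes. Krt10 encodes a keratin of the epidermis, Rad50 a subunit of a DNA break repair complex and Smc6 a subunit of a complex that maintains chromosome structure. Their distances were 0.100, 0.108 and 0.123 log2 units. Krt10 had log2 intensities of 9.26, 9.61 and 9.36 in knockout, against 9.11, 7.47, 8.37 and 9.57 in wild type, lowest on wild-type arrays 2 and 3 as Gria4 was. The 7 points share their libraries, and a likeness over so few arrays is a description.

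The other genes of glutamate transmission were also without a call. Of 55 genes in 5 lists, 43 had a probe and 37 were tested at their brightest probe. Higher means in knockout were found for 23 and lower ones for 14, with a median of 0.03, which was also 0.03 over all 9079 tested genes. By limma 0 passed the adjusted threshold. Of the 37, 3 had an unadjusted p under 0.05, all lower, against 148 of 9079 tested genes and 1.99% of all probes in that direction. The groups did not overlap for 4 of the 37 higher and 2 lower. Over the 9079 genes these numbers were 317 and 334, and over all probes 3.44% and 3.94%.

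AMPA receptor auxiliary subunits, which carry the receptors to the synapse and slow their closing, had 3 of 10 tested members higher and 7 lower, with a median of -0.07. The list includes Neto1, which is known mainly as a partner of kainate and NMDA receptors. Cacng8, the hippocampal auxiliary subunit gamma-8 that binds GluA1, read 29.6, 18.3 and 23.0 in knockout, against 27.7, 35.6, 40.4 and 41.3 in wild type. The knockout readings were the lower ones except that wild-type array 1 fell among them. The difference was -0.63 (SE 0.22), the unadjusted p 0.0193 and the adjusted p 0.754 (limma), and it was -0.54 without wild-type arrays 2 and 3. Cacng4 differed by -0.75 (SE 0.51) and by -0.11 without those arrays. Cacng2, which encodes stargazin, read 106, 114 and 122 in knockout, against 104, 20.4, 89.6 and 121 in wild type. Its difference was 0.72 (SE 0.56), and 0.13 without wild-type array 2, where it was lowest. Cacng5 differed by 0.11 (SE 0.19), and by 0.05 without wild-type arrays 2 and 3.

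Trafficking and clustering genes had 10 of 11 tested members higher and 1 lower, with a median of 0.16, and without wild-type arrays 2 and 3 the counts were 5 higher and 6 lower, with a median of -0.0025. The lower member was Dlg4, which encodes the scaffold PSD-95 that anchors NMDA receptors and AMPA receptor complexes. It read 378, 356 and 361 in knockout, against 466, 724, 540.4 and 413 in wild type. All knockout arrays lay below all wild-type arrays. The difference was -0.52 (SE 0.20, unadjusted p = 0.033, limma adjusted p = 0.754) and -0.26 without wild-type arrays 2 and 3. Nptx2, whose secreted pentraxin clusters AMPA receptors, read 543, 556 and 695 in knockout, against 503, 374, 504 and 502 in wild type, again without overlap (difference 0.35, SE 0.18, limma adjusted p = 0.754). Gripap1, an endosomal partner of the AMPA receptor-binding protein GRIP1, differed by 0.23 (SE 0.19), without overlap, and by 0.08 without wild-type array 2.

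Among editing enzymes and genes of NMDA co-agonist supply, 4 of 8 tested members were higher and 4 lower, with a median of -0.09. Adarb1, which encodes ADAR2, the enzyme that edits the GluA2 pore site, read 2846, 2966 and 2816 in knockout, against 2627, 2464, 2171 and 2721 in wild type. The knockout arrays lay above all wild-type arrays, with a difference of 0.21 (SE 0.14, limma adjusted p = 0.754) that was 0.10 without wild-type arrays 2 and 3. Its other tested probe, which was dimmer, gave -0.25 (SE 0.17), against that sign. Adar differed by 0.62 (SE 0.34) at its brightest probe and by -0.27 and 0.01 at its others, and the first was 0.29 without wild-type array 2 and 0.15 without wild-type arrays 2 and 3. Phgdh, the first enzyme of the pathway to serine, read 62.3, 63.4 and 61.4 in knockout, against 83.8, 127, 117 and 62.2 in wild type. The knockout readings were nearly equal, and wild-type array 4 matched them. The difference was -0.59 (SE 0.25, unadjusted p = 0.0448, limma adjusted p = 0.754) and -0.21 without wild-type arrays 2 and 3. Slc6a9, the glycine transporter GlyT1, differed by -0.46 (SE 0.28), by -0.21 without wild-type array 2 and by -0.10 without wild-type arrays 2 and 3.

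Other ionotropic receptors had 3 of 5 tested members higher and a median of 0.02, and metabotropic receptors 3 of 3 higher and a median of 0.14. The kainate receptor subunit genes Grik5 and Grik4 differed by 0.32 (SE 0.34) and 0.12 (SE 0.24), and both signs turned without wild-type array 2, to -0.02 and -0.06, while without wild-type arrays 2 and 3 they were 0.08 and 0.06. Grina, which encodes a membrane protein once described as an NMDA receptor-associated protein, differed by -0.21 (SE 0.15) and by -0.08 without wild-type arrays 2 and 3, and Grin3b, the gene of GluN3B, by -0.17 (SE 0.21) near the floor, with 4 of 7 arrays above it. The presynaptic metabotropic receptor genes Grm8 and Grm4 differed by 0.14 (SE 0.17) and 0.17 (SE 0.29), which became -0.05 and 0.30 without wild-type arrays 2 and 3. Grm4 was near the floor, with its values on knockout array 2 and wild-type arrays 2 and 4 set to it. None of the genes of these 2 lists had an unadjusted p under 0.05.

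**Figure D4:**
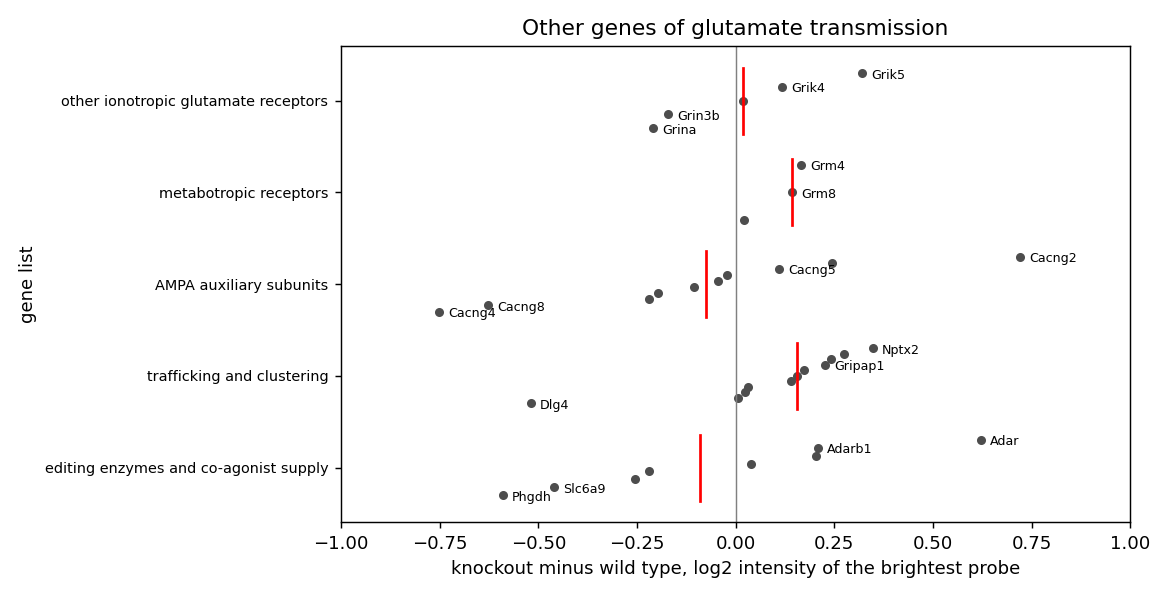
Knockout minus wild-type difference in log2 intensity (horizontal axis) of each tested gene of the 5 lists, 1 point per gene at its brightest probe, with the median of each list as a red bar. The points lie between -0.75 and 0.72, and the genes named are those with the smallest unadjusted p in each direction of each list.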

How the data were processed

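The deposited normalized values are intensities on a linear scale, made with GenomeStudio 2011.1 per the submitters' processing notes. Negative intensities and nearly equal array quantiles (75th percentile 176 to 177) point to background subtraction and a normalization between arrays, whose method the labels do not state. A second deposited table holds 14 value columns whose names match no sample label, and it was not used here, so no detection p-value was available. Intensities under 16 were set to 16, log2 was taken, and the 12833 probes above 16 on at least 3 arrays were fitted with limma 3.58.1 in R 4.3.3, with the group as the only term. P-values were adjusted over all tested probes by the Benjamini-Hochberg method, with a threshold of 0.05. Differences are knockout minus wild type and understate changes near the floor. The brightest probe stood for a gene. The fit was tested on simulated data. No pair of arrays shared more than 0.00389% identical values. Each array has its own mouse in the labels, and the number of arrays limits the precision (median standard error 0.21). The alternatives tried covered the floor, the filter, quantile normalization, the variance model, array weights, a replicate block, the leaving out of arrays and the mean over probes. The genes named were all member probes, the 2 genes per direction of each list with the smallest unadjusted p, and the 3 genes most like the member of widest range. Single genes outside this rule (Pde4dip and the marker genes given by name) were named after their values were seen. The members and lists were chosen with earlier results of these data known. Figures were drawn with matplotlib 3.10.9.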

Additional observations from a re-analysis of the deposited data

Results flagged for a closer look

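Among 27 probes and ratios checked within the wild-type group for 1 array far from the rest, 4 had one, all in genes around the receptors and none in a subunit. By the limit used, chance alone gives such an array in about 5% of groups of this size. On wild-type array 2 the lowest log2 intensity was 4.35 for Cacng2, 9.74 for Gripap1 and 8.55 for Nptx2, each well under the other wild-type arrays. On wild-type array 3 the highest was 4.76 for Grin3b.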

How the results depend on the processing

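No paired design was found: deviations of arrays with the same number correlated at 0.0797, -0.132 and -0.0371, and 0 of 3 knockout arrays were closest to the wild-type array of their own number. With the replicate number as a block, 0 probes were called and the differences of Gria1 and Gria4 were -1.15 and 1.27, the same as without wild-type array 4. Member probes past the threshold numbered 0 under all 16 alternatives, and the smallest adjusted p of a member in each lay between 0.143 and 1. Over all probes 28 passed with array weights, whose weights ran from 0.104 for wild-type array 2 to 6.71 for wild-type array 1, and 0 under the other 15. The signs of Gria1, Gria3, Gria4 and both ratios held under every alternative run. With 1 array left out in turn, Gria1 ranged from -1.15 to -0.50, Gria2 from 0.19 to 0.46, Gria3 from -0.57 to -0.07, Gria4 from 0.59 to 1.27 and Grin2c from -0.033 to 0.40, the ratio of Gria1 to Gria2 from -1.48 to -0.76 and that of Gria4 to Gria2 from 0.33 to 0.94. The sign of Gria2 turned with array weights (-0.029). That of its dimmer probe, 0.02 in the report, turned with array weights (-0.25), the replicate block (-0.066), without wild-type arrays 2 and 3 (-0.0025) and with single arrays left out (-0.20 to 0.14). Grin2c turned with array weights (-0.15), without wild-type array 2 (-0.033) and without wild-type arrays 2 and 3 (-0.14). The cause of these turns was not tested. Readings near the floor limit Gria3, Gria4 and Grin2c.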
